A study of Rattus norvegicus with 12 samples.

Results

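The hyaluronan genes described here are 10 genes of the rat lung: the synthases Has1, Has2 and Has3, the degrading proteins Cemip, Cemip2, Hyal1 and Hyal2, and the binding partners Cd44, Tnfaip6 and Vcan. They were taken by gene name from a table of 23096 genes, and each name stood on 1 line. The group was chosen by measured values, because Cemip was among the strongest rises in the same DA and control libraries that are compared here, so the members' differences between those groups are given as a description, with no p-value. Lungs with their bronchi came from male Sprague Dawley rats aged 8 weeks and weighing 300 g, per the labels, and each group has 6 libraries. In the DA group, rats received 125 mg/kg of 2,3-butanedione (diacetyl, DA) through the trachea once a day for 7 days. In the control group, rats received aseptic distilled water by the same route. Lungs were collected 24 h after the last instillation, and the number of instillations is stated for the DA group alone. The compound is a butter flavouring chemical, used here to induce bronchiolitis obliterans, a scarring of small airways, and whole tissue was sequenced, so cell types were not separated.

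Hyaluronan is a long, unsulphated sugar polymer of the extracellular matrix. The synthases are membrane enzymes that join UDP-glucuronic acid and UDP-N-acetylglucosamine and extrude the growing chain from the cell. Cemip and the membrane protein Cemip2 break long chains, as do the hyaluronidases, of which Hyal2 is anchored at the cell surface and Hyal1 is lysosomal. CD44 is the main cell surface receptor, versican is a large proteoglycan that binds the chain, and TNFAIP6 (TSG-6) transfers protein heavy chains onto it. In the lung the polymer holds water in the matrix, and it is known to accumulate early after injury.

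Library totals ranged from 13723207 to 16271842 counts, with 16579 to 17354 genes detected, and the level that 0 counts could still hide (3 counts) was 0.186 to 0.218 CPM, counting error alone. CPM are the read counts divided by library size after TMM scaling. Although all rats were labelled male, 6 libraries (4 DA, 2 control) held 3488 to 4536 reads of Y-linked genes and the other 6 (DA replicates 5 and 6, control replicates 3 to 6) held 1 to 9, so results are also given within each set. DA replicate 4 stood apart in tissue content. Its summed alveolar type 2 markers were at 9177 CPM. The other DA libraries held 18369 to 24549 CPM of these markers and the controls 20097 to 23830 CPM. Its summed T and B cell markers were at 637 CPM, against at most 149 CPM in any other library. Summed cardiac muscle markers were at 603 CPM in this library. They were at 29.9 to 234 CPM in the other DA libraries and 9.98 to 24.1 CPM in the controls. Cartilage markers, which bronchi could contribute, summed to 10.7 to 19.8 CPM in DA and 10.5 to 21.3 CPM in control lungs. Of these 9 genes, 6 were below the count filter. The cartilage collagen gene Col2a1 held 19 counts in DA and 4 in control libraries. Its highest DA library was at 1.02 CPM and its DA median at 0.0340 CPM, so a single library held most of its DA counts. Fewer cells of a type and less RNA per cell cannot be told apart in such samples.

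The sequences just upstream of Cemip and Hyal2 are shown because these were the members past the test's threshold. They are the 250 bases before the annotated start in RefSeq, build GRCr8, written 5′ to 3′ on the gene's strand. The Cemip sequence is at chr1:147471484-147471733 on the minus strand, and the Hyal2 sequence at chr8:117121552-117121801 on the plus strand. Capitals mark matches to the searched motifs.
Cemip: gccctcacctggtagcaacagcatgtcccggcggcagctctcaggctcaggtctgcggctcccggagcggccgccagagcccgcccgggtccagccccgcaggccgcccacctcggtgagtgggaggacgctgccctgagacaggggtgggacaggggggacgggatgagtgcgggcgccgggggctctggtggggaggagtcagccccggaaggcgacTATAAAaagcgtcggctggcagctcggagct
Hyal2: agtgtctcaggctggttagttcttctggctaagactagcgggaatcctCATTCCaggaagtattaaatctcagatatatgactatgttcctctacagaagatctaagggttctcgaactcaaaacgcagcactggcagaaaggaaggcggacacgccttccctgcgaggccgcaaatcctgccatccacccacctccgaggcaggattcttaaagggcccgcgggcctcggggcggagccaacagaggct
Cemip held TATAAA, the TATA box, beginning 31 bases before its start, a motif found on the gene's strand in 8.06% of 33469 promoter windows of this length. Hyal2 held CATTCC, the reverse complement of the TEAD factor motif GGAATG, which stood on either strand in 12.1% of windows. Promoter windows were matched for 7 of the 10 members, in 8 entries. The AP-1 motif TGANTCA, found in 6.34% of windows on either strand, stood once in the Tnfaip6 window, which also held CATTCC once. The cAMP response element TGACGTCA, found in 1.59%, stood once in that of Has1. The clock E-box CACGTG, found in 5.59%, stood in none of the 8. Neither TGANTCA nor TGACGTCA contains the other, and the motifs were chosen after the sequences were seen.

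Of the 10 members, 1 was higher and 1 was lower in DA lungs, the threshold being an adjusted p of 0.05 over 14517 genes tested with edgeR (quasi-likelihood). These were Cemip and Hyal2. A further 6 members were tested and did not pass, Has2 fell below the filter on low counts, and Hyal1 was listed at 0 in all libraries. Of all genes tested, 16.0% passed, made up of 8.45% of all tested genes that were higher and 7.51% that were lower. The rule used this contrast, so nothing is read from the members' count. The median log2 fold change of the 8 tested members was -0.03, and that of all tested genes was 0.03.

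**Figure D1:**
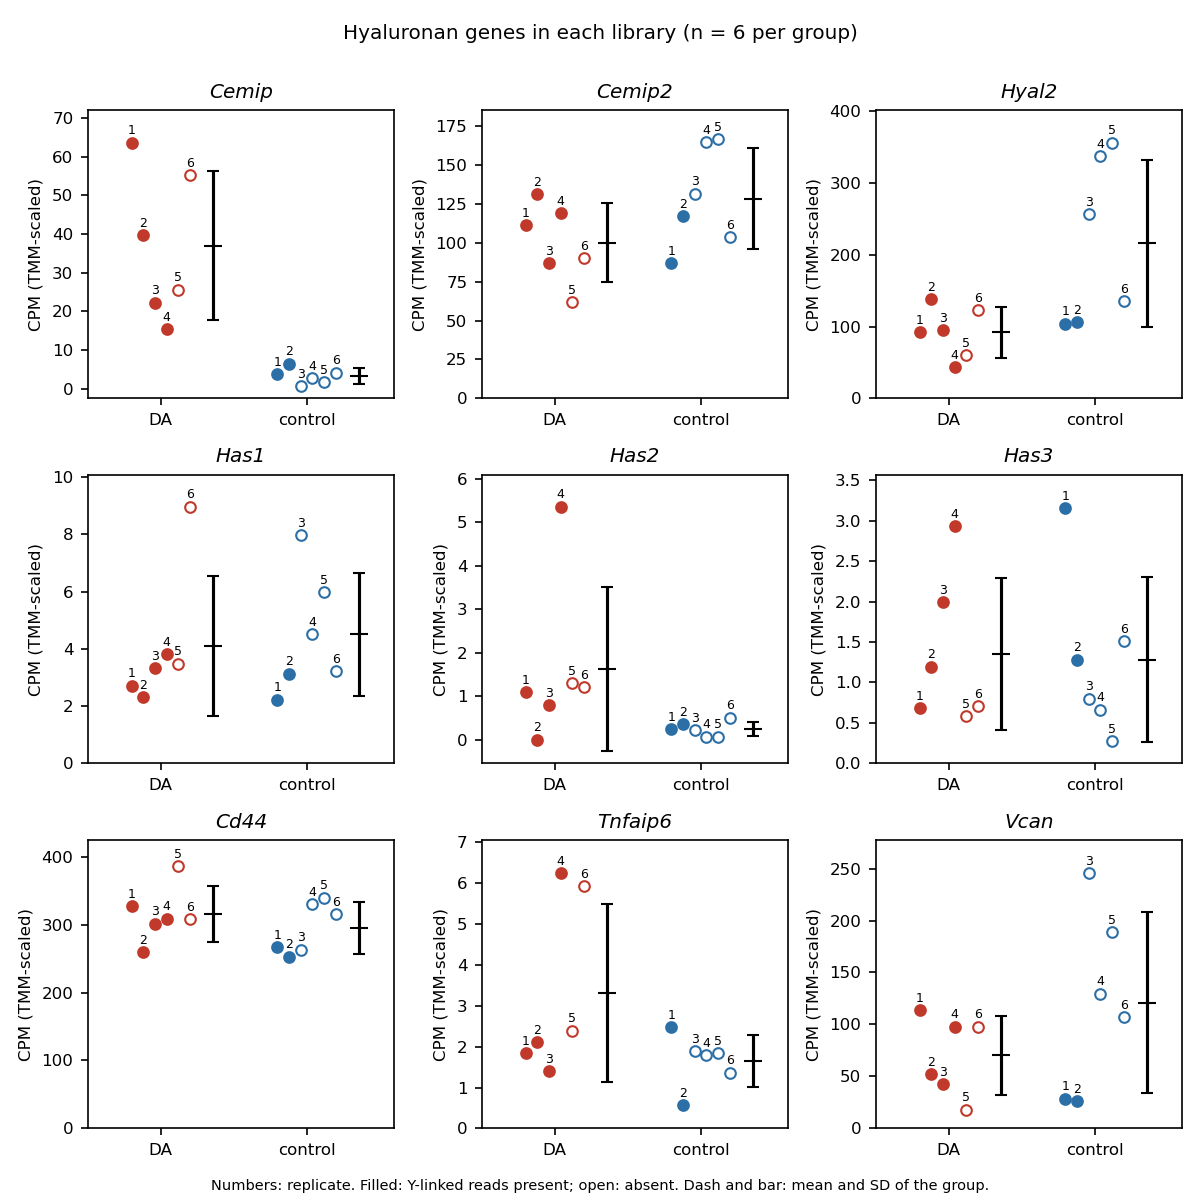
CPM (TMM-scaled, vertical axes) of the 9 members with counts in each DA and control library, with the replicate number at each point, filled where Y-linked reads were present, and the group mean and SD (n = 6) beside the points. Cemip is the member whose groups do not overlap, and control replicates 3 to 5 are the highest libraries for Hyal2 and for Vcan.

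Cemip (ENSRNOG00000012442), whose secreted product is needed for hyaluronan breakdown in fibroblasts, was far more abundant in DA lungs. Its lowest, median and highest values were 15.4, 32.7 and 63.6 CPM in DA lungs, against 0.653, 3.25 and 6.49 CPM in control lungs. Every DA library lay above every control library, as was so for 3.11% of all tested genes, and 6.04% did not overlap in either direction. The mean was 37.0 ± 19.3 CPM in DA and 3.26 ± 2.03 CPM in control lungs (SD, n = 6 each), a log2 fold change of 3.50 ± 0.49 (SE). The DA libraries were uneven: DA replicates 1 and 6 were highest, at 63.6 and 55.3 CPM, and DA replicate 4 was lowest. Cemip differed by 2.79 ± 0.66 on the log2 scale within the libraries with Y-linked reads, where none of the tested genes passed the threshold, and 4.10 ± 0.56 within those without. Leaving out any 1 library gave values between 3.27 and 3.80, a description of the libraries that chose the gene.

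The genes whose profile over the 12 libraries lay closest to that of Cemip included Tnc, Fndc1, Lum and Ccl12. The measure was the root mean square difference in log2 CPM after each gene was centred on its own mean, and it ran from 0.71 for Tnc to 1.00 for Ccl12. Tnc, which encodes the matrix glycoprotein tenascin-C, averaged 157 ± 98.4 CPM in DA and 21.0 ± 16.9 CPM in control lungs (SD, n = 6 each). Lum, the gene of the proteoglycan lumican, averaged 54.1 ± 43.8 CPM in DA and 5.75 ± 3.36 CPM in control lungs. Cemip itself had been chosen for its rise, so the likeness is a description. Summed fibroblast markers were at 3169 to 6797 CPM in DA and 1900 to 2993 CPM in control lungs, with 3 of 8 genes higher and 2 lower. The higher ones were the collagen genes Col1a1, Col1a2 and Col3a1, which averaged 1345, 984 and 2196 CPM in DA lungs and made up most of the sum. The lower ones were Pdgfra, averaging 161 CPM in DA and 333 CPM in control lungs, and Tcf21, at 79.8 and 167 CPM. Dpt, Dcn and Pi16 did not pass. Summed smooth muscle and myofibroblast markers were at 1520 to 4596 CPM in DA and 696 to 1318 CPM in control lungs, with 6 of 7 genes higher. Summed mesothelial markers were at 209 to 396 CPM in DA and 114 to 283 CPM in control lungs, with 1 of 5 genes higher. Their part in the Cemip difference was not tested.

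Cemip2 (ENSRNOG00000012782), the transmembrane relative of Cemip, had its lowest, median and highest values at 61.9, 101 and 131 CPM in DA lungs, against 86.9, 124 and 166 CPM in control lungs. The ranges overlapped, and the log2 fold change was -0.36 ± 0.20 (SE), which did not pass. Per length, both genes stood closer together in DA lungs: the FPKM ratio of Cemip to Cemip2 was 0.354 to 1.69 in DA libraries, with a median of 0.984, against 0.0136 to 0.152 in control libraries, with a median of 0.0783. In DA replicates 1, 5 and 6 Cemip exceeded Cemip2 per length, and in each control library Cemip2 was the higher of the pair. The deposited length of Cemip2 is 13934 bases and that of Cemip is 5079 bases. As CPM, which are not divided by length, Cemip2 exceeded Cemip in every DA and control library. The FPKM ratio contains the Cemip values that chose the group. Within the libraries without Y-linked reads the Cemip2 log2 fold change was -0.91 ± 0.24, and within those with them it was 0.13 ± 0.22. The interaction between treatment and the presence of Y-linked reads was not the contrast that chose the genes, but it was added after the data were seen. It was 1.04 ± 0.34 for Cemip2 (edgeR, unadjusted p = 0.0115, adjusted p = 0.543) and -1.31 ± 0.90 for Cemip (edgeR, unadjusted p = 0.174, adjusted p = 0.716). Among all genes, 7.83% had an unadjusted interaction p under 0.05.

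**Figure D2:**
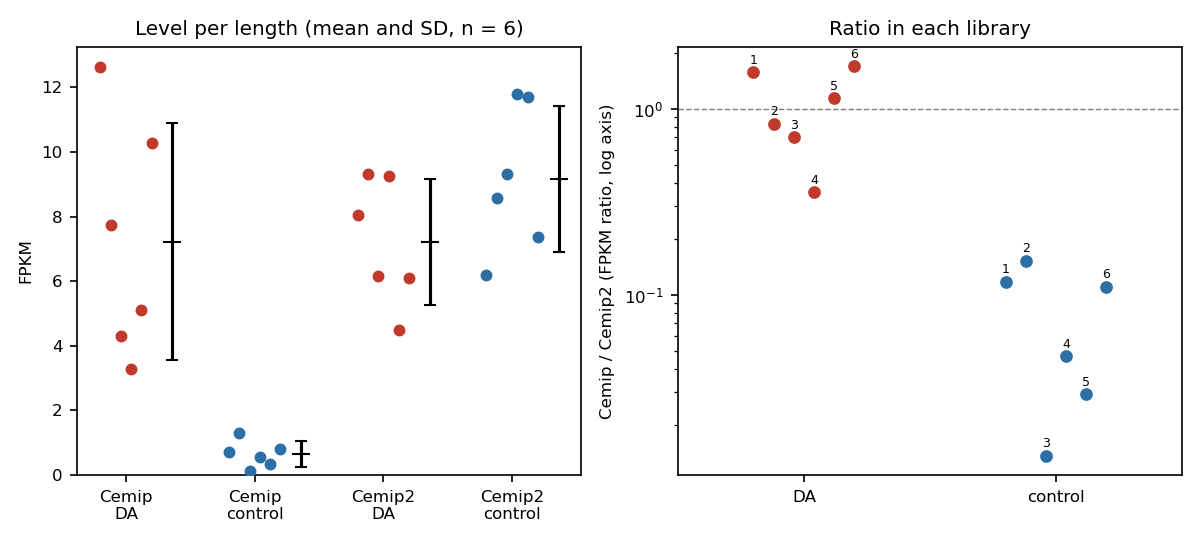
Left, FPKM of Cemip and Cemip2 in each library with the mean and SD (n = 6 per group). Right, the FPKM ratio of Cemip to Cemip2 in each library on a log axis, with replicate numbers and a dashed line at a ratio of 1, where DA libraries lie between 0.354 and 1.69 and control libraries between 0.0136 and 0.152.

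Hyal2 (ENSRNOG00000031420) was the most abundant member per length and was lower in DA lungs. Its lowest, median and highest values were 43.4, 93.7 and 138 CPM in DA lungs, against 104, 196 and 356 CPM in control lungs. The groups overlapped, because control replicates 1, 2 and 6, at 104, 106 and 135 CPM, lay within the DA range, while control replicates 3, 4 and 5 stood at 256, 337 and 356 CPM. The log2 fold change was -1.23 ± 0.37 (SE), and 6 of 6 DA libraries lay below the control mean. Control replicates 1, 2 and 6 also lay below that mean. The call was lost without control replicate 3, 4 or 5, or without DA replicate 1, 3, 4, 5 or 6, at log2 fold changes between -1.03 and -1.34. Among libraries holding Y-linked reads the log2 fold change of Hyal2 was -0.19 ± 0.40, and among the others it was -1.57 ± 0.45, past the threshold in neither. The interaction was 1.37 ± 0.66 (edgeR, unadjusted p = 0.0604, adjusted p = 0.651).

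Sums of other genes also split the control libraries, but not all of them between the same replicates. The sum over 5 glucocorticoid-induced genes, chosen after the data were seen, was 1234, 1169 and 1216 CPM in control replicates 3, 4 and 5, against 330 to 666 CPM in DA libraries and 428 to 709 CPM in control replicates 1, 2 and 6. The core clock genes Arntl and Npas2 summed to 33.5 to 54.8 CPM in DA libraries, against 89.5 to 137 CPM in control replicates 3 to 6 and 16.0 to 19.1 CPM in control replicates 1 and 2. Clock genes of the phase of Dbp summed to 266 to 656 CPM in DA libraries, against 589 to 1344 CPM in control replicates 1 to 3 and 153 to 192 CPM in control replicates 4 to 6. Alveolar type 2 markers in the controls, at 20097 to 23830 CPM, did not show such a split, while summed neutrophil markers stood at 1056 to 2108 CPM in control replicates 3 to 6 and at 319 and 719 CPM in control replicates 2 and 1. Summed alveolar macrophage markers were at 193 to 468 CPM in DA and 411 to 877 CPM in control lungs. Of 4 tested genes, 2 were lower, Siglec5 and Mrc1, and Fabp4 and Pparg did not pass. Mrc1 made up most of the sum, averaging 291 CPM in DA and 522 CPM in control lungs. Summed endothelial markers were at 748 to 3153 CPM in DA and 2029 to 3070 CPM in control lungs, with 1 of 4 genes lower. The part of these differences in the Hyal2 values was not tested.

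Hyal1 (ENSRNOG00000015858) was listed at 0 counts in all 12 libraries. In RefSeq its span overlaps those of Naa80 and Hyal3, and the strand setting of the counting is not given in the sources used here, so the 0 is not read as absence of the RNA. Hyal3 (ENSRNOG00000070382), a further hyaluronidase gene, shares this locus, and its counts are uncertain for the same reason. Hyal3 had a lowest, median and highest value of 15.1, 29.3 and 40.8 CPM in DA lungs, against 32.4, 52.4 and 91.2 CPM in control lungs. It was lower by a log2 fold change of -0.94 ± 0.30 (edgeR adjusted p = 0.0488), with the highest control values again in replicates 3, 4 and 5, at 66.7, 91.2 and 72.6 CPM.

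The synthases together were scarce, at summed FPKM values of 1.48 to 4.60 in DA and 2.06 to 4.07 in control libraries. Has1 (ENSRNOG00000010994) had its lowest, median and highest values at 2.32, 3.41 and 8.97 CPM in DA lungs, against 2.23, 3.87 and 7.98 CPM in control lungs. The ranges nearly coincided, and the log2 fold change of -0.14 ± 0.38 (SE) did not pass. It turned to 0.19 with Y-linked reads as a term, since Has1 was lower by 1.02 ± 0.30 on the log2 scale in libraries with such reads than without them at the same treatment (edgeR, unadjusted p = 0.00551, adjusted p = 0.701). Among all genes, 0.0551% passed for that difference, and 5.15% had an unadjusted p under 0.05. Has1 made up 43.0% to 88.5% of the summed synthase FPKM in DA and 49.3% to 96.4% in control libraries.

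Has2 (ENSRNOG00000004854), the synthase best known for hyaluronan made by fibroblasts, was near the limit of detection in control lungs, at 1 to 7 counts per library and 21 counts in all. The DA libraries held 149 counts in all, of which 84 were in DA replicate 4, 12 to 20 in each of DA replicates 1, 3, 5 and 6, and 0 in DA replicate 2. As CPM, DA lungs ranged up to 5.36 with a median of 1.14, against 0.0664 to 0.502 with a median of 0.233 in control lungs. In 5 of 6 DA libraries Has2 lay above every control library. The ratio of the summed counts, scaled by library size, was 6.96 (exact 95% interval 4.39 to 11.6, counting error only), and 3.68 without DA replicate 4 (2.22 to 6.35). These intervals leave out the spread between libraries, so they do not test the difference between the groups. With no filter the fitted log2 fold change was 2.69 ± 0.84 (SE) and did not pass. Has2 also entered the test without each of the 6 control replicates (2.52 to 3.03) and in the sets with Y-linked reads (2.55) and lacking them (2.51), and passed in none of these. Without DA replicate 2, the library at 0 counts, Has2 was at 2.96 ± 0.63 and passed. The library left out there is the one opposite to the rise, so nothing is read from that pass. Its share of the summed synthase FPKM was 0 to 34.4% in DA and 0.626% to 6.32% in control libraries.

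Has3 (ENSRNOG00000059362) had its lowest, median and highest values at 0.581, 0.950 and 2.93 CPM in DA lungs, against 0.272, 1.04 and 3.15 CPM in control lungs. The highest libraries were DA replicate 4 and control replicate 1. A log2 fold change of 0.07 ± 0.55 (SE) did not pass and turned to -0.36 with Y-linked reads as a term. Libraries with such reads held more Has3 at the same treatment, by 1.43 ± 0.47 on the log2 scale (edgeR, unadjusted p = 0.0105, adjusted p = 0.760).

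Cd44 (ENSRNOG00000006094) varied little between libraries. Its lowest, median and highest values were 260, 309 and 386 CPM in DA lungs, against 253, 291 and 339 CPM in control lungs. Its log2 fold change of 0.10 ± 0.11 (SE) did not pass, and no single library moved it beyond 0.03 to 0.14. The profile closest to that of Cd44 among the members was that of Cemip2, at a root mean square difference of 0.47 in centred log2 CPM. This measure is small for any pair of genes that vary little. DA replicate 5 was the highest library for Cd44, at 386 CPM, and the lowest for Cemip2, at 61.9 CPM. The counts are per gene, so splice forms of Cd44 were not separated.

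Tnfaip6 (ENSRNOG00000050792), an inflammation-induced gene, had its lowest, median and highest values at 1.40, 2.25 and 6.25 CPM in DA lungs, against 0.570, 1.81 and 2.47 CPM in control lungs. DA replicates 4 and 6, at 6.25 and 5.93 CPM, lay above every control library, and the other 4 DA libraries lay within the control range. The log2 fold change of 1.00 ± 0.43 (SE) did not pass, and without DA replicate 4 it was 0.71. By the same measure of likeness, the closest genes to Tnfaip6 were Dsel, Pof1b, Ldb3, AABR07072108.1 and Ap1s3, at differences of 0.44 to 0.49. Those closest to Has1 were Zfp287, Spsb1, Galr2, Ddx3x and Sybu, at 0.41 to 0.43.

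Vcan (ENSRNOG00000029212) did not pass the threshold, and its fitted differences had opposite signs in the libraries with and without Y-linked reads. Its lowest, median and highest values were 18.1, 74.9 and 114 CPM in DA lungs, against 26.4, 118 and 246 CPM in control lungs, a log2 fold change of -0.78 ± 0.56 (SE) that did not pass. Among libraries with Y-linked reads, 4 DA libraries held 42.4 to 114 CPM, all above the control values of 26.4 and 28.6 CPM, and the fitted difference was 1.47 ± 0.44 on the log2 scale. Among those without, DA replicates 5 and 6 held 18.1 and 97.8 CPM, both below the 4 controls at 107 to 246 CPM, and the fitted difference was -1.54 ± 0.64. The interaction of 3.01 ± 0.88 had an unadjusted p of 0.00562 and did not pass after adjustment (edgeR adjusted p = 0.504). Over all genes 7.83% had an unadjusted interaction p under 0.05 and 0 passed after adjustment. Control replicates 3 to 6 are also the libraries high in Arntl and Npas2 and in neutrophil markers, and this was not separated from the Y-linked split.

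**Figure D3:**
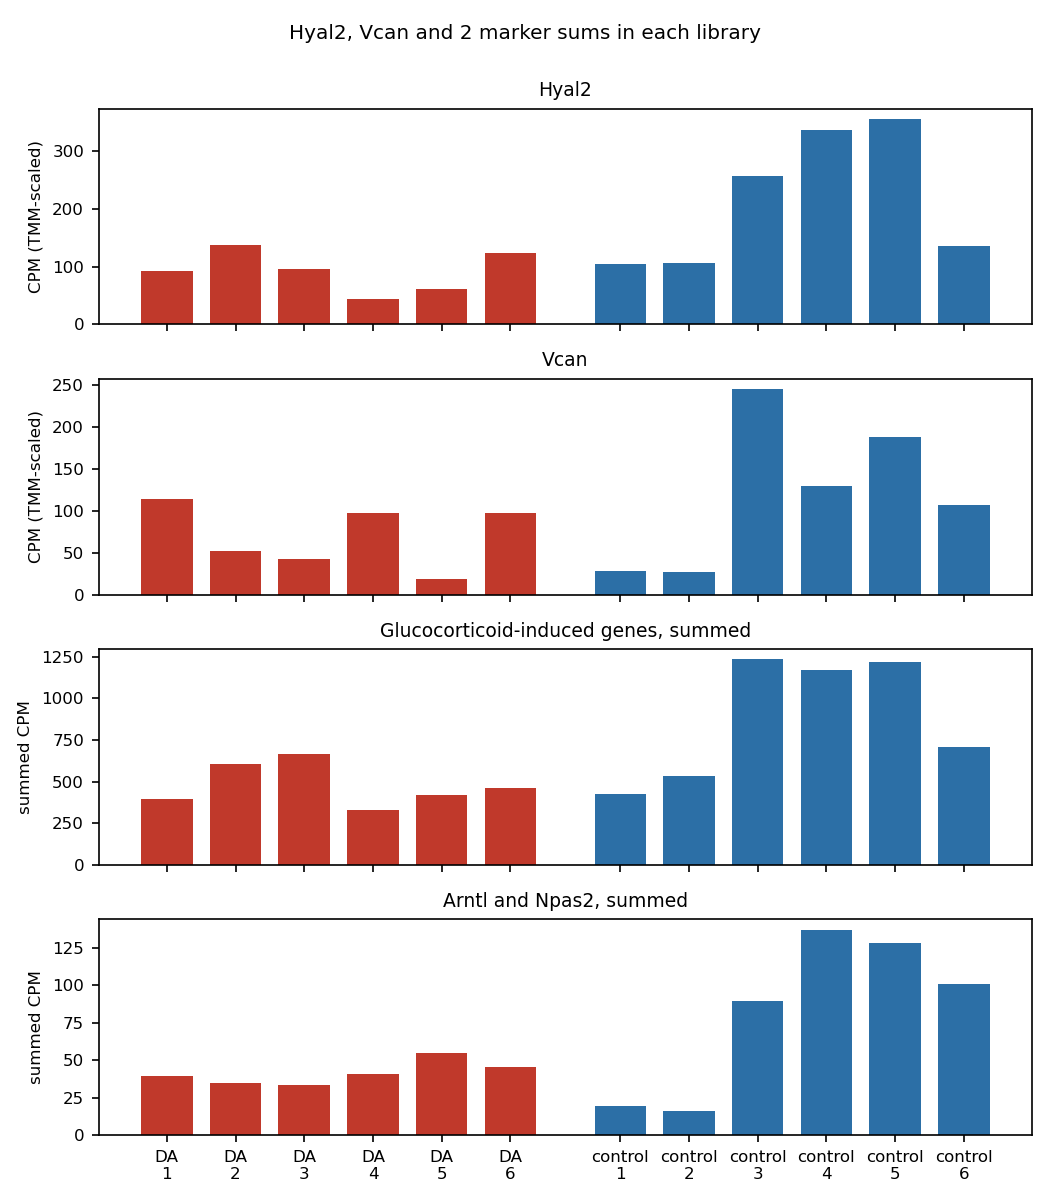
CPM of Hyal2 and Vcan and summed CPM of 5 glucocorticoid-induced genes and of Arntl with Npas2 in each library, one bar per library, DA in red and control in blue. Control replicates 3 to 5 are the highest for Hyal2, Vcan and the glucocorticoid-induced genes, and control replicates 1 and 2 are the lowest for Arntl with Npas2.

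**Figure D4:**
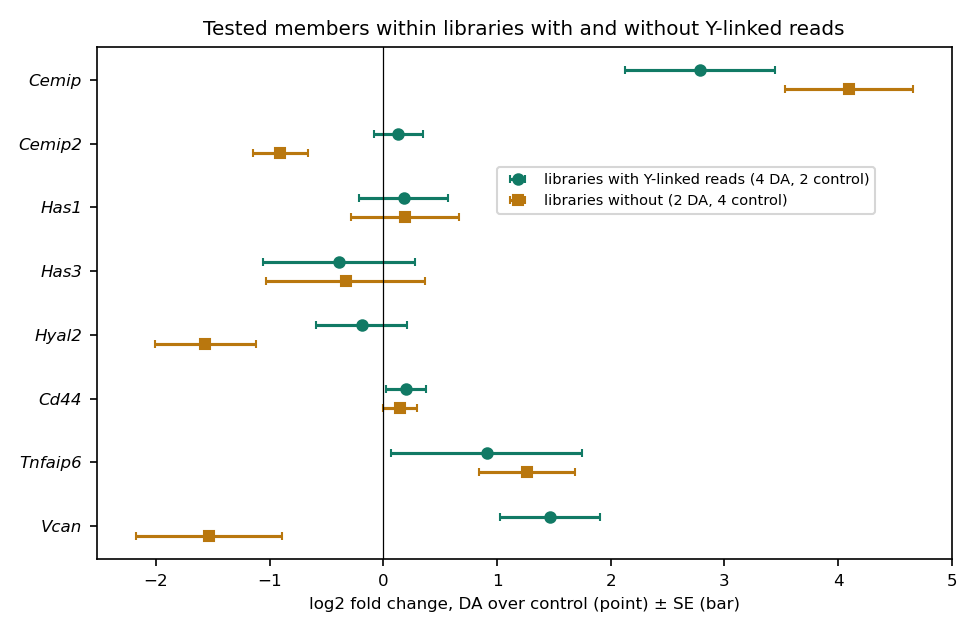
Log2 fold change of DA over control (point) with its SE (bar) for the 8 tested members, fitted within the libraries with Y-linked reads (4 DA, 2 control) and within those without (2 DA, 4 control). Cemip is above 0 in both sets, and Vcan is at 1.47 in one and -1.54 in the other.

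Ordered by mean FPKM, the DA lungs ran from Hyal2 (47.9), Cd44 (8.79), Cemip2 (7.22) and Cemip (7.22) to Tnfaip6 (2.33), Vcan (2.15), Has1 (1.94), Has2 (0.46) and Has3 (0.449). The control lungs ran from Hyal2 (112), Cemip2 (9.16), Cd44 (8.14) and Vcan (3.63) to Has1 (2.14), Tnfaip6 (1.14), Cemip (0.643), Has3 (0.415) and Has2 (0.0661). Cemip stood at rank 4 in DA and rank 7 in control lungs. In both groups Hyal2 lay clear of its neighbour, and each other pair of neighbours with counts had overlapping ranges. The deposited lengths of Cd44 (36005 bases) and Vcan (32966 bases) far exceed those of the other members (1435 to 13934 bases), and this lowers their FPKM.

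A list of 63 other genes of hyaluronan metabolism and binding was also counted. Of the 61 found in the table, 46 were tested. There were 5 higher and 3 lower in DA, which is 10.9% and 6.52% of those tested, near the 8.45% and 7.51% of all genes. Their median log2 fold change was 0.10.

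**Figure D5:**
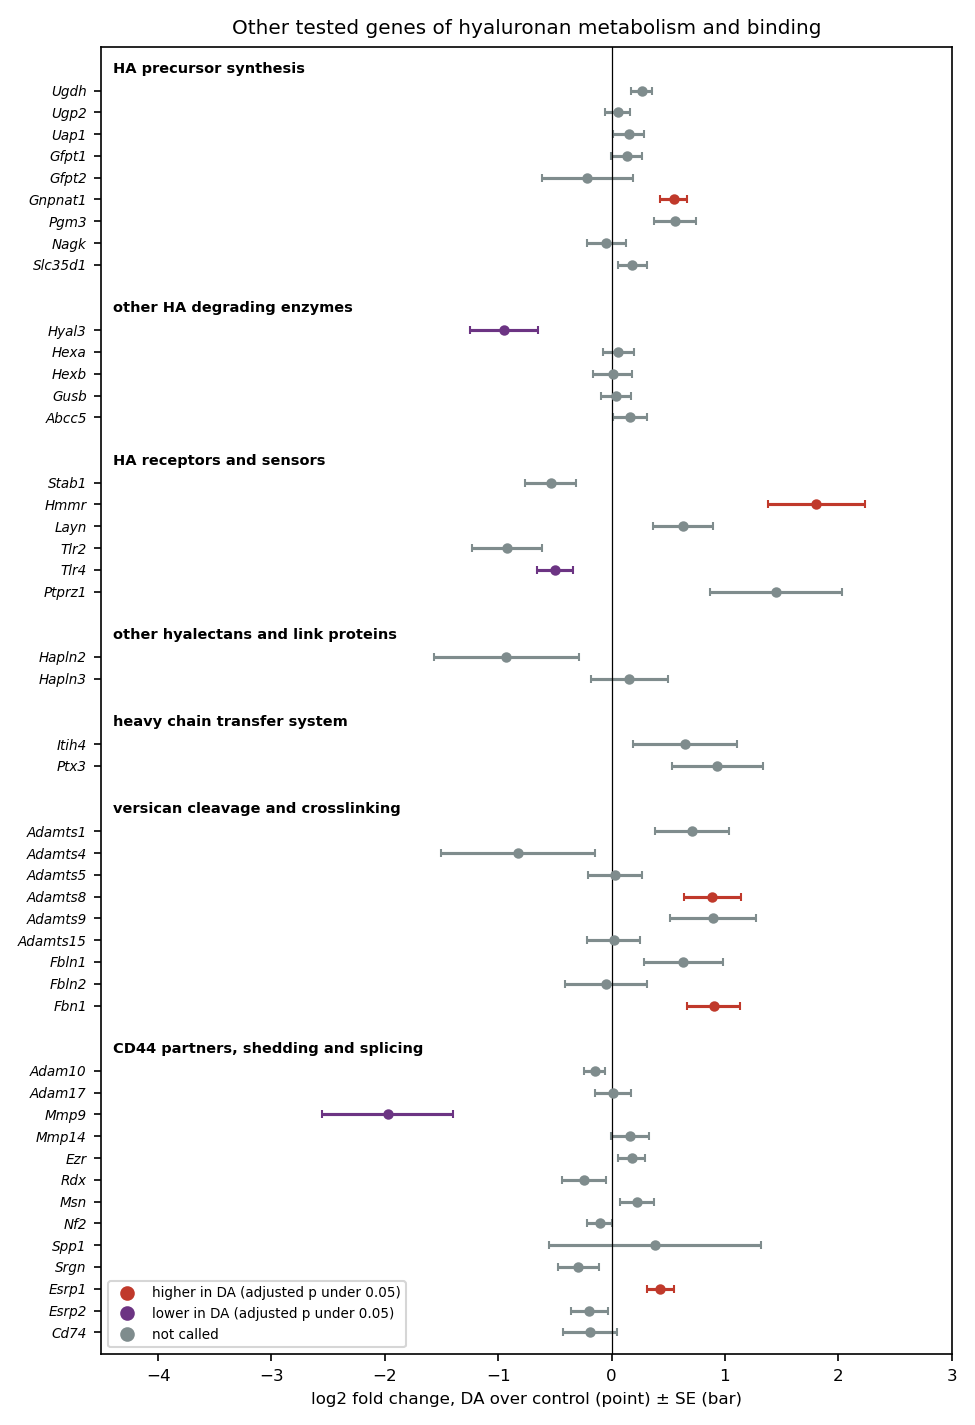
Log2 fold change of DA over control (point) with its SE (bar) for the 46 tested genes of the 7 lists, coloured by whether the adjusted p was under 0.05. The 5 genes in red were higher and the 3 in purple lower in DA.

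Precursor synthesis supplies the UDP-sugars that the synthases join. Of 9 tested genes, 1 rose and 0 fell. Gnpnat1, which acetylates glucosamine phosphate on the way to UDP-N-acetylglucosamine, had values of 25.5 to 38.1 CPM in DA lungs, against 18.8 to 25.4 CPM in control lungs. It averaged 31.9 ± 4.86 CPM in DA and 21.8 ± 2.57 CPM in control lungs (SD, n = 6 each), a rise of 0.55 ± 0.12 on the log2 scale (edgeR adjusted p = 0.0136). Its groups did not overlap, by 25.5 CPM in the lowest DA library against 25.4 CPM in the highest control library. The call held without each single library and was lost in the set holding Y-linked reads (edgeR adjusted p = 0.507) and in the set lacking them (edgeR adjusted p = 0.105).

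Of 5 tested genes among the other degrading enzymes and exporters, Hyal3 fell and 0 rose. The Hyal3 call was lost without control replicate 3, 4, 5 or 6 or DA replicate 1, 3, 4, 5 or 6 (edgeR adjusted p between 0.0538 and 0.113), and among libraries holding Y-linked reads its log2 fold change was -0.11. Spam1, the gene of the sperm hyaluronidase, and Hyal6 held 0 counts, and Hyal4 and Hyal5 held 1 count each over all libraries.

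Among receptors and sensors, Hmmr rose and Tlr4 fell of 6 tested genes. Hmmr encodes a hyaluronan-binding protein that also sits on the mitotic spindle. It averaged 17.7 ± 10.9 CPM in DA and 5.04 ± 1.90 CPM in control lungs (SD, n = 6 each), a log2 fold change of 1.81 ± 0.43 (edgeR adjusted p = 0.0182). It was uneven, at 30.2, 28.9 and 22.7 CPM in DA replicates 1, 4 and 6 and at 6.07 to 9.76 CPM in the other DA libraries. Summed proliferation markers were highest in the same DA replicates, at 489, 784 and 294 CPM, against 114 to 142 CPM in the other DA libraries and 53.0 to 151 CPM in controls, and their part in the Hmmr difference was not tested. Tlr4, a receptor of innate immunity that can respond to hyaluronan fragments, averaged 46.5 ± 10.7 CPM in DA and 65.8 ± 10.9 CPM in control lungs, a log2 fold change of -0.50 ± 0.16 (edgeR adjusted p = 0.0471). The Tlr4 call held without control replicate 2 or DA replicate 2 or 6 and was lost without each other library (edgeR adjusted p between 0.0504 and 0.100).

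Of the other hyaluronan-binding proteoglycans and link proteins, 2 of 7 were tested and neither passed. Hapln2 and Hapln3 had log2 fold changes of -0.93 (edgeR adjusted p = 0.330) and 0.16 (edgeR adjusted p = 0.781). Acan, the gene of the cartilage proteoglycan aggrecan, held 5 counts in DA and 6 in control libraries, and Hapln1 held 0. Of the system that transfers heavy chains onto hyaluronan, 2 of 7 genes were tested and neither passed. Ptx3, the gene of a pentraxin that binds TNFAIP6, averaged 7.42 ± 2.63 CPM in DA and 3.88 ± 2.53 CPM in control lungs (SD, n = 6 each; log2 fold change 0.93 ± 0.40, edgeR adjusted p = 0.123). Itih4, of the heavy chain family, had a log2 fold change of 0.65 (edgeR adjusted p = 0.348).

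Of 9 tested genes of versican-cleaving enzymes and microfibril partners, 2 rose and 0 fell. Adamts8, of the ADAMTS proteinase family, averaged 94.9 ± 37.8 CPM in DA and 51.3 ± 10.3 CPM in control lungs (SD, n = 6 each), a log2 fold change of 0.89 ± 0.25 (edgeR adjusted p = 0.0338). DA replicate 4 was lowest, at 41.1 CPM, within the control range. Fbn1, the gene of the microfibril protein fibrillin-1, averaged 283 ± 110 CPM in DA and 152 ± 27.9 CPM in control lungs, a log2 fold change of 0.90 ± 0.23 (edgeR adjusted p = 0.0248). Neither call held without each single library. That of Adamts8 was lost without control replicate 2, 3, 4, 5 or 6 or DA replicate 1, 2 or 6 (edgeR adjusted p between 0.0552 and 0.0742), and that of Fbn1 without control replicate 3, 4 or 5 or DA replicate 1 or 6 (edgeR adjusted p between 0.0533 and 0.0574).

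Of 13 tested genes of CD44 partners, shedding and splicing, Esrp1 rose and Mmp9 fell. Esrp1, an epithelial splicing regulator of Cd44, averaged 45.4 ± 6.18 CPM in DA and 33.7 ± 4.80 CPM in control lungs (SD, n = 6 each), a log2 fold change of 0.43 ± 0.12 (edgeR adjusted p = 0.0298). Mmp9, the gene of a gelatinase that can dock on CD44 and is stored in neutrophils, ranged from 5.23 to 14.5 CPM in DA lungs, against 6.63 to 96.8 CPM in control lungs, a log2 fold change of -1.98 ± 0.58 (edgeR adjusted p = 0.0363). Control replicates 3 to 6 held 27.2 to 96.8 CPM of Mmp9, while control replicates 1 and 2, at 10.4 and 6.63 CPM, lay within the DA range. The log2 fold change of Mmp9 among libraries holding Y-linked reads was 0.50. Summed neutrophil markers were at 353 to 688 CPM in DA and 319 to 2108 CPM in control lungs, with 2 of 5 genes lower, and their part was not tested. The Esrp1 call was lost without control replicate 1, 4, 5 or 6 or DA replicate 1 or 3 (edgeR adjusted p between 0.0508 and 0.0683), and that of Mmp9 without control replicate 3, 4, 5 or 6 or DA replicate 1, 3, 4, 5 or 6 (edgeR adjusted p up to 0.0820).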

How the data were processed

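RNA of whole lung with bronchi was sequenced in 12 libraries. The submitters' processing notes name HISAT2 2.2.1, HTSeq 2.0.2 and the build mRatBN7.2; the counting's strand setting, annotation release and filters are not given in the sources used here. The deposited table holds raw read counts per Ensembl gene and the authors' FPKM, which equal counts divided by the deposited length and the library total (largest relative deviation 5.33e-15). Counts were analysed in R 4.3.3 with edgeR 4.0.16: filterByExpr (14517 genes), TMM, and the quasi-likelihood F test on group alone (two-sided), Benjamini-Hochberg over all tested genes, threshold 0.05. SEs are the absolute log2 fold change over the square root of F. The labels do not state that each library came from its own rat, so p-values measure the spread between these libraries, which may be technical. FPKM served to set levels of different genes side by side. The fit on group alone recovered most of the largest known changes in simulated counts. For the interaction fit only a large change was simulated, and the fits within the Y-linked sets were not simulated, so their power for smaller changes is not known. Libraries were called with Y-linked reads at 50 or more such counts.

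The members, gene lists and tests were chosen with earlier results of these data known. The text names all members, pathway genes past the threshold (or the 2 most abundant of a list with none), and the 5 nearest profiles to Cemip, Has1 and Tnfaip6, of which 1 is not reported here. Alternatives were DESeq2 1.42.0, limma 3.58.1 on log2(FPKM + 0.5), upper quartile scaling, raw totals, dropping the filter, a minimum mean FPKM of 1, a replicate block, Y-linked reads as a term or as separate sets, and leaving out each library. The interaction fit, the Y-linked coefficient and the glucocorticoid and clock sums were added after the data were seen. Lyve1 and Itih5 were not analysed here.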

Additional observations from a re-analysis of the deposited data

Results flagged for a closer look

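Chance alone sets about 1 in 20 groups apart by the criterion used for single samples, and 18 groups were examined for the members. Has1 stood apart in DA replicate 6, at 8.97 CPM, against 2.32 to 3.83 CPM in the other DA libraries. Has2 stood apart in DA replicate 4, at 5.36 CPM, against at most 1.29 CPM in the other DA libraries. That library had the low alveolar type 2 sum and the high lymphocyte and cardiac muscle marker sums.

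Vcan drew attention because every DA library lay above the controls among libraries with Y-linked reads and every DA library lay below them among libraries without. The difference between both log2 fold changes was 3.01 ± 0.88 in the interaction fit by edgeR (unadjusted p = 0.00562, adjusted p = 0.504). It did not pass, and the sets hold only 2 control and 2 DA libraries on their smaller side.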

How the results depend on the processing

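The log2 fold change of Cemip lay between 2.70 and 4.10 over 10 other settings, and it fell short of the threshold in 1, the libraries with Y-linked reads alone (2.79). Those libraries gave 0 members higher, 0 members lower, and 0 genes higher or lower overall. That of Hyal2 passed in 5 of the 10 and fell short in limma on log2(FPKM + 0.5) (-1.13), with Y-linked reads as a term (-0.88) and within the libraries with (-0.19) or without them (-1.57), so that 0 members were lower there. Directions turned for Cemip2 (0.13) and Vcan (1.47) within the libraries with Y-linked reads, for Has1 with the Y term (0.19) and within both sets (0.18 and 0.19), and for Has3 with the Y term (-0.36) and within both sets (-0.39 and -0.33). Mmp9 turned within the libraries with Y-linked reads (0.50). Upper quartile scaling, raw totals and DESeq2 turned no member's direction and put the median of all genes at 0.08, 0.04 and 0.02.

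Genes higher in DA, 1226, numbered 1888 by DESeq2, 549 with the Y term and 716 in the set lacking Y-linked reads; genes lower, 1090, numbered 1645 by DESeq2 and 572 with the Y term. Pathway genes higher, 5, numbered 8 by DESeq2, 2 with the Y term, 0 in the set with Y-linked reads and 1 in the set without. Pathway genes lower, 3, numbered 1 under upper quartile scaling, 1 with no filter, 1 in limma, 0 with the Y term and 0 in the set with Y-linked reads. The causes were not tested.

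Leaving out each library in turn gave 578 to 1558 genes higher and 578 to 1461 lower, 1 to 2 members higher, 0 to 1 lower, 2 to 6 pathway genes higher and 0 to 4 lower. The log2 fold change was then -1.39 to -1.03 for Hyal2, -0.53 to 0.10 for Has1 (above 0 without control replicate 3) and -0.32 to 0.57 for Has3 (below 0 without control replicate 3, 4 or 5 or DA replicate 3 or 4).

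With the replicate number as a block, 677 genes were higher, 3 pathway genes were higher and 0 lower, and 0 members were lower (Hyal2 at -1.12); the Gnpnat1 call was lost too (edgeR adjusted p = 0.0510). Same-numbered libraries correlated in their deviations from the group means at -0.26 to 0.30, above 0.1 in 3 of 6 pairs, and 3 of 6 DA libraries correlated best with their own number. Since not every pair was above 0.1, the numbers were not taken to pair the samples. Depth limits Has2, whose control libraries hold 1 to 7 counts. Hyal1 was listed at 0 throughout, but its span overlaps those of Naa80 and Hyal3, so depth is not named as its limit.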
